A study of Mus musculus with 6 samples.

Results

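The ribosomal S6 kinase family comprises 8 genes, namely Rps6ka1, Rps6ka2, Rps6ka3 and Rps6ka6 (p90 ribosomal S6 kinases, RSK), Rps6ka4 and Rps6ka5 (mitogen- and stress-activated kinases, MSK) and Rps6kb1 and Rps6kb2 (S6 kinases, S6K). A gene was taken where a probe set of the array names that gene alone, and for genes with several such probe sets the highest mean over all 6 arrays would have decided. Rps6ka3, Rps6ka5, Rps6ka6 and Rps6kb2 were found, each with 1 probe set, so that no choice by level had to be made. They are 4 of 19938 genes measured in this way. Rps6ka1, Rps6ka2, Rps6ka4 and Rps6kb1 had no probe set of their own in the annotation used and were not analysed here. The genes of the family were brought together with the array results known. Rps6ka6 had been picked by the study on these arrays. Its difference is therefore given as a description, and its calls are not read as a test.

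The study used 6 arrays (Affymetrix Mouse Gene ST 1.0) to measure RNA, 3 of neurosphere cells transduced with the pCMMP-Bmi1 retroviral vector (Bmi1 overexpression) and 3 of cells transduced with the empty vector (Empty vector control). Neurospheres are clusters of neural stem/progenitor cells that grow in suspension, and these were derived from tissue lining the lateral ventricle in CD1 mice, which are outbred, at 4 to 6 weeks of age. All cells of both groups were grown with EGF and FGF, sorted on the eGFP of the vector and kept at clonal density (2000 cells per well), and 300 ng of total RNA was used per array. The text of the study names FLAG-tagged Bmi1 for the arrays, whereas the labels name the untagged vector, and the labels do not tie the 3 arrays of a group to separate mice, and all p-values therefore reflect no more than the spread among these 6 samples, which may be technical.

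Bmi1, the gene of the vector and a component of Polycomb repressive complex 1, read 9.18, 8.36 and 8.42 (log2) on the Bmi1 arrays, against 7.70, 8.40 and 8.31 on the empty vector arrays. The groups overlapped, and the log2 difference of 0.52 was not called (adjusted p = 0.38 from limma). On each of the 6 arrays the source field gives the opposite group. The grouping here rests on the titles, which the transduction and genotype fields match, and with the source field every difference below would change its sign. Array medians lay between 4.37 and 4.45, and the correlation was 0.991 to 0.993 for arrays of the same group and 0.985 to 0.987 for arrays of different groups. Of 11 neural stem and progenitor markers 3 rose (Prom1, Sox9 and Hes5) and none fell at an adjusted p under 0.05 from limma. Of 8 neuron markers 2 rose (Gad1 and Dcx), and of 5 mature oligodendrocyte markers 1 fell (Opalin). Over all genes with 1 probe set each, 4.37% fell and 2.98% rose. Dcx (means of 3.52 with Bmi1 and 2.98 with the empty vector) and Opalin (3.04 and 3.81) lay below the array medians in both groups. None of 6 ependymal, 8 microglial, 6 endothelial and 8 pericyte and fibroblast markers passed limma (1, 0, 0 and 1 at an unadjusted p under 0.05). The summed linear signal of the neuron markers was 392 to 421 on the Bmi1 arrays and 375 to 395 on the empty vector arrays, and the part of such cells in the results was not tested. In RNA of whole cultures, fewer cells of a type and less RNA per cell cannot be told apart.

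The kinases of this family carry growth factor, stress and nutrient signals to ribosomes, transcription factors and chromatin. RSK enzymes have a pair of kinase domains in a single protein and are switched on by ERK together with the kinase PDK1. MSK enzymes are built alike, are switched on by ERK or p38 and phosphorylate the transcription factor CREB and histone H3 in the nucleus. S6K enzymes have a single kinase domain and act behind the nutrient-sensing complex mTORC1, with the ribosomal protein S6 as their best known substrate.

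All differences are Bmi1 minus empty vector, in log2 units of robust multi-array average (RMA) expression values. Rose, fell and called mean that limma gave an adjusted p under 0.05 (Benjamini-Hochberg, over the 35557 probe sets of the array). Counts of members in this section leave out Rps6ka6, since it was picked on these arrays. Of the other 3 measured members 1, Rps6ka5, was called lower and none higher. Over all probe sets, 3.46% were called lower and 2.23% higher, 5.7% in all. Among genes with 1 probe set each, 4.37% were called lower and 2.98% higher. The methods' t-test (difference of 1 or more in either direction, with p under 0.001) called none of the 3, and 0.562% of probe sets lower and 0.281% higher. None of the 3 was higher at an unadjusted p under 0.05 from limma, whereas 2 were lower. The share of all probe sets under that limit was not counted, so no trend of the family is read from this. The groups did not overlap, with the Bmi1 arrays lower, for 2 of the 3, Rps6ka3 and Rps6ka5, against 12.9% of all probe sets (13.8% had the Bmi1 arrays higher, 26.6% in all) and 15.9% of genes with 1 probe set each. The median difference of the 3 was -0.33, and that of all probe sets was 0.02.

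**Figure D1:**
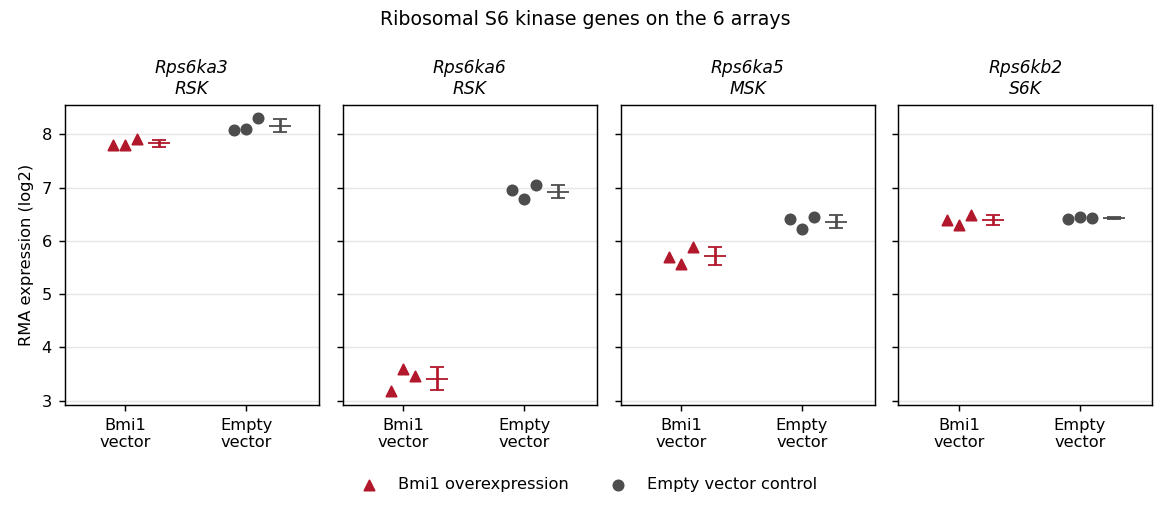
RMA expression on the log2 scale (y axis) of the 4 measured ribosomal S6 kinase genes, with 1 symbol per array, triangles for Bmi1 overexpression and circles for Empty vector control, and bars for mean and SD of 3 arrays. Rps6ka6 lies at 3.60 or lower on the Bmi1 arrays and at 6.79 or higher on the empty vector arrays, Rps6ka5 and Rps6ka3 are separated by smaller gaps of 0.33 and 0.17, and Rps6kb2 overlaps.

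Rps6ka6 encodes RSK4, which differs from the other RSK enzymes in its high activity without growth factors and has been described as growth inhibitory in human cells. Its probe set (10606445) read 3.18, 3.60 and 3.47 on the Bmi1 arrays, against 6.95, 6.79 and 7.04 on the empty vector arrays. All Bmi1 values lay below the median of their arrays and all empty vector values above it, with a gap of 3.19 between the groups. The means were 3.41 ± 0.21 with Bmi1 and 6.93 ± 0.13 with the empty vector (SD, n = 3 each). The difference of -3.51 (95% confidence interval -3.83 to -3.20) corresponds to an 11.4-fold lower value (9.20- to 14.2-fold), and RMA compresses differences that end among dim probe sets, so that the fold is approximate. Only 3 of 35557 probe sets had a larger negative difference.

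Rps6ka3 encodes RSK2, the kinase mutated in Coffin-Lowry syndrome in humans, and lies like Rps6ka6 on the X chromosome. It read 7.79, 7.80 and 7.91 on the Bmi1 arrays, against 8.09, 8.11 and 8.31 on the empty vector arrays. The groups did not overlap, but were only 0.17 apart. The difference was -0.33 (95% confidence interval -0.54 to -0.12) and was not called over all probe sets (adjusted p = 0.091 from limma). With 1 probe set per gene the adjusted p was 0.035, among probe sets with a mean of at least 5 it was 0.022, and with a mean-dependent variance prior over all probe sets it was 0.035, so that the call changed with the features tested and with the variance model.

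Rps6ka5 encodes MSK1, which links ERK and p38 to CREB and to histone H3. It read 5.70, 5.57 and 5.90 on the Bmi1 arrays, against 6.42, 6.23 and 6.44 on the empty vector arrays, with no overlap. The mean was 5.72 ± 0.16 with Bmi1 and 6.36 ± 0.12 with the empty vector (SD, n = 3 each). Rps6ka5 fell by 0.64 (standard error 0.11, adjusted p = 0.024 from limma), which is 1.56-fold (95% confidence interval 1.30- to 1.88-fold). Without Bmi1 replicate 1 or 2, or without empty vector replicate 1 or 3, the call was lost (adjusted p = 0.088, 0.072, 0.086 and 0.092 from limma), and the difference stayed between -0.73 and -0.57 with any array left out.

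Rps6kb2 encodes S6K2, which shares S6 as a substrate with S6K1. It read 6.40, 6.30 and 6.48 on the Bmi1 arrays, against 6.41, 6.45 and 6.44 on the empty vector arrays. The groups overlapped, and the difference was -0.04 (adjusted p = 0.84 from limma). Its 95% confidence interval of -0.21 to 0.14 leaves room for a change in either direction that is smaller than the fall of Rps6ka5.

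**Figure D2:**
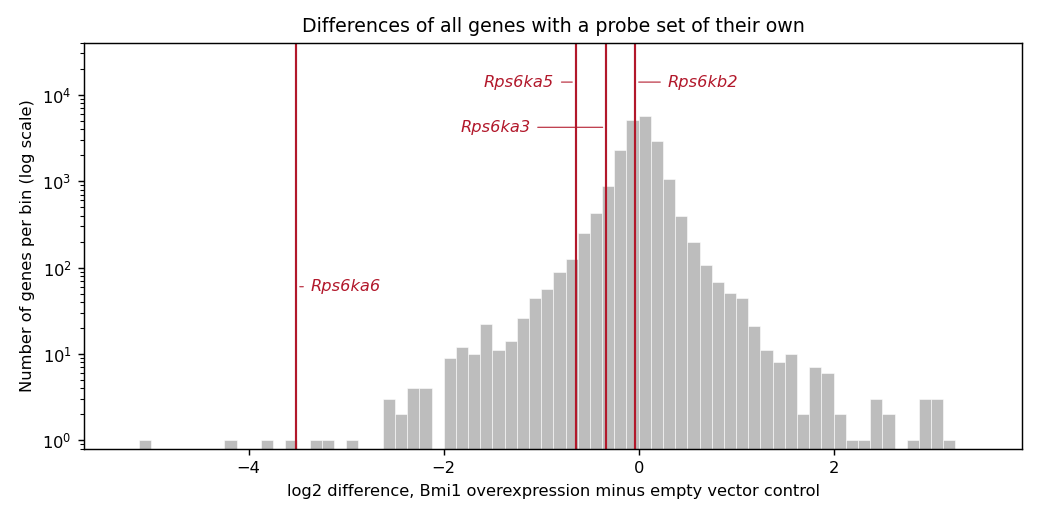
Number of genes per bin of equal width (y axis, log scale) by log2 difference, Bmi1 overexpression minus empty vector control (x axis), for 19938 genes with a probe set of their own, and vertical lines at the 4 ribosomal S6 kinase genes. Rps6ka6 at -3.51 lies in the sparse left tail, Rps6ka5 and Rps6ka3 lie on the left flank at -0.64 and -0.33, and Rps6kb2 at -0.04 lies in the centre.

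In the order of differences over all probe sets, 2.40% had a more negative value than Rps6ka5, 7.57% a more negative value than Rps6ka3 and 38.0% a more negative value than Rps6kb2. The 4 genes therefore spread from the extreme tail to the middle of the array. The related genes Rps6kc1 and Rps6kl1, which share the name but are distant in structure, had differences of 0.03 and -0.09 that did not pass (adjusted p = 0.87 and 0.67 from limma).

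BMI-1 acts in Polycomb repressive complexes, a form of which is recruited to unmethylated CpG islands. The promoter sequences of Rps6ka6 and Rps6ka5, the members with the most negative differences, are therefore shown. They are RefSeq windows of the 250 bases before an annotated start (build GRCm38.p6, minus strand, 5′ to 3′), and capitals mark CpG dinucleotides. No window of Rps6ka3 or Rps6kb2 was used. Rps6ka6 has 2 annotated starts, with windows at chrX:111537960-111538209 (window 1) and chrX:111463498-111463747 (window 2). Rps6ka5 has 1, with its window at chr12:100725121-100725370.
Rps6ka6 window 1: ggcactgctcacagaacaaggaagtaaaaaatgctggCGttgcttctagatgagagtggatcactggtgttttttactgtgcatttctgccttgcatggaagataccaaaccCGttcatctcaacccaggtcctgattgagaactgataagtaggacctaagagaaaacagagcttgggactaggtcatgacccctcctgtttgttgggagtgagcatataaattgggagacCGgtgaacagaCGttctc
Rps6ka6 window 2: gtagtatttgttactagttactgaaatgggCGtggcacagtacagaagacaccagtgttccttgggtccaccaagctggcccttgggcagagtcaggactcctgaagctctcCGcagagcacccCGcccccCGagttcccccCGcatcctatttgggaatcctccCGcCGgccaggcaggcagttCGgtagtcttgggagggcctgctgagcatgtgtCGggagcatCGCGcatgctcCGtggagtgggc
Rps6ka5 window: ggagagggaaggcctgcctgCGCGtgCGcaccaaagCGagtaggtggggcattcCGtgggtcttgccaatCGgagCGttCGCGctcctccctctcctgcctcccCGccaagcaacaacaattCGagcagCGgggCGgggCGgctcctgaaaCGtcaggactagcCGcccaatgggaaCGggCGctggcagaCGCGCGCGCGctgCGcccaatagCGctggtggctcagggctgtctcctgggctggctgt
Window 1 of Rps6ka6 held 4 CpGs, fewer than the median of 6 over 32851 windows, and 62.2% of all windows held at least as many. Window 2 of Rps6ka6 held 12 CpGs, a number that 33.5% of windows reach. The window of Rps6ka5 held 25 CpGs, which 10.7% of windows reach, with a GC content of 68.0%, against 46.4% and 60.8% in windows 1 and 2 of Rps6ka6. The windows thus differ in CpG content between these genes and between the starts of Rps6ka6, and the array does not tell which start was in use. CpG islands were not called, and the arrays measure neither DNA methylation nor BMI-1 binding. A part of CpG content in the differences was not tested. The letters TATAAA, searched on both strands, occur in window 1 of Rps6ka6, beginning 33 bases before the start, and not in the other windows shown, while 12.4% of all windows hold them.

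The genes next to Rps6ka6 were compared as well. In chromosome order and among genes with a probe set of their own these are Pou3f4, Cylc1, Rps6ka6, Hdx and Tex16. Pou3f4, a POU-domain transcription factor gene of neural precursors whose human counterpart is mutated in an X-linked deafness, read 4.99, 5.13 and 5.48 on the Bmi1 arrays, against 7.56, 7.32 and 7.50 on the empty vector arrays. It fell by 2.26 (standard error 0.14, adjusted p = 8.3e-04 from limma), without overlap. Cylc1, a sperm head gene, and Tex16, named for its testis expression, had group means of 1.94 and 1.91 on the Bmi1 arrays and 1.72 and 2.06 on the empty vector arrays, among the dimmest on the array, and did not pass (adjusted p = 0.47 and 0.39 from limma). Hdx, a divergent homeobox gene, had a mean of 3.03 ± 0.14 with Bmi1 and 3.44 ± 0.33 with the empty vector (SD, n = 3 each), or -0.41 as a difference, which was not called (adjusted p = 0.26 from limma). The immediate neighbours Cylc1 and Hdx thus did not pass, whereas Pou3f4, the next gene beyond Cylc1, fell. The groups of Hdx and Tex16 also did not overlap, by narrow margins. The highest Bmi1 value of Hdx was 3.175 and its lowest empty vector value 3.186, and for Tex16 these were 1.990 and 1.998. Cylc1, Hdx and Tex16 lay below the array medians on every array, which leaves little room for a fall, so no contrast with Pou3f4 is read.

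**Figure D3:**
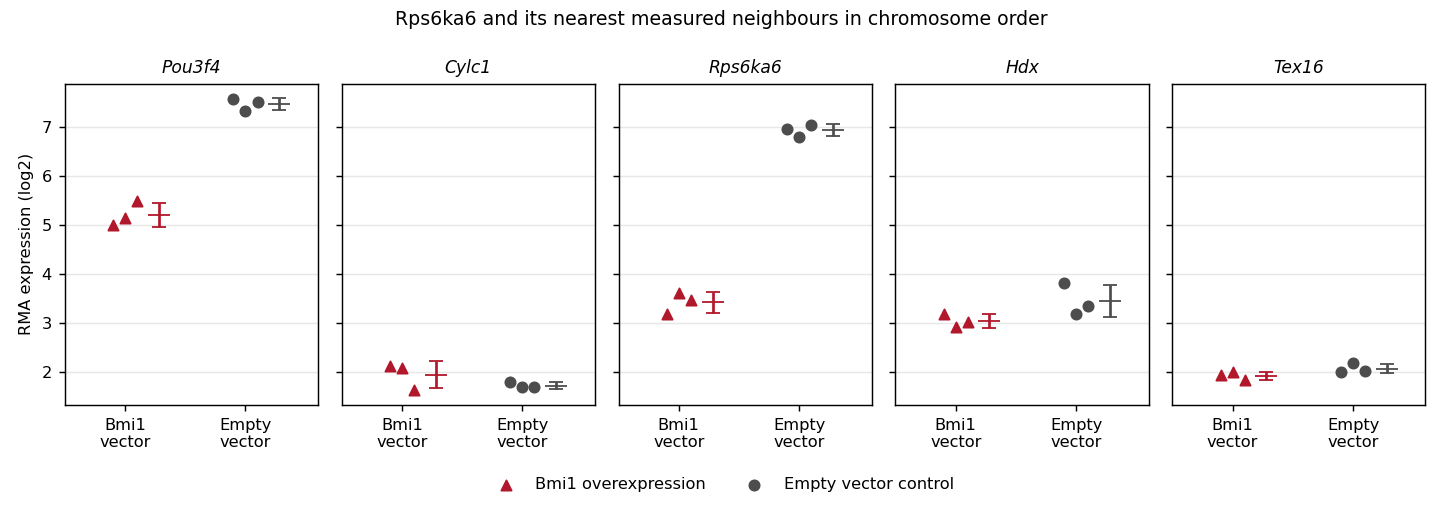
RMA expression on the log2 scale (y axis) of Rps6ka6 and the 2 nearest measured genes on each side, in chromosome order from left to right, with 1 symbol per array, triangles for Bmi1 overexpression and circles for Empty vector control, and bars for mean and SD of 3 arrays. Pou3f4 and Rps6ka6 are well separated between the groups. Cylc1, Hdx and Tex16 lie at 3.81 or lower on every array, with the groups of Hdx and Tex16 barely apart and those of Cylc1 overlapping.

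Neighbours of the other members were looked at after the values were known. Next to Rps6ka3, Cnksr2, which encodes a scaffold protein of the Ras to ERK route, read 3.11, 3.52 and 3.16 on the Bmi1 arrays, against 4.34, 4.46 and 4.40 on the empty vector arrays. It fell by 1.14 (adjusted p = 0.0049 from limma), while Eif1ax on the other side had a difference of 0.08 (adjusted p = 0.60 from limma). Next to Rps6ka5, Dglucy, which encodes a D-glutamate cyclase, fell by 1.11 (adjusted p = 0.0022 from limma) and Ttc7b had a difference of -0.34 (adjusted p = 0.076 from limma). None of the 4 nearest measured genes of Rps6kb2 passed (0 at an unadjusted p under 0.05).

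The genes whose values over the 6 arrays were most like those of Rps6ka6, by the root mean square distance after each gene was set to its own mean, were Fgl2 (0.17), Epha7 (0.25), Commd3 (0.25), Lnpk (0.30) and Crim1 (0.48). Their differences lay between -3.82 (Epha7) and -2.61 (Crim1), on either side of the -3.51 of Rps6ka6. The distance depends mainly on the difference between the groups, so these similar falls follow from the choice, and shared regulation was not tested. Epha7 encodes a receptor tyrosine kinase for ephrins, Fgl2 a fibrinogen-like protein and Crim1 a membrane protein that binds bone morphogenetic proteins, while Commd3 is the gene next to Bmi1.

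The cascade that activates RSK and MSK was examined next. Of 22 listed genes of the ERK cascade, 17 had a probe set of their own, of which 4 fell, none rose and 13 did not pass. Over the 19938 genes, each by 1 probe set, 4.37% were called lower and 2.98% higher in the same fit to all probe sets. The median difference of the 17 was -0.10, against 0.01 over all genes. Map2k1, which encodes the ERK kinase MEK1, read 9.07, 9.04 and 9.09 on the Bmi1 arrays, against 10.10, 10.10 and 10.03 on the empty vector arrays. It fell by 1.01 (standard error 0.06, adjusted p = 8.3e-04 from limma), and its groups lay far apart relative to the spread. Braf, which encodes a kinase acting on MEK, fell by 0.75 (adjusted p = 0.022 from limma), and Shc1, an adaptor of growth factor receptors, by 0.64 (adjusted p = 0.011 from limma). Pea15a, whose product binds ERK and RSK2, read 10.00 ± 0.03 with Bmi1 and 10.41 ± 0.12 with the empty vector (SD, n = 3 each) and fell by 0.41 (adjusted p = 0.041 from limma). Map2k2, which encodes the related kinase MEK2, differed by -0.27 and was not called (adjusted p = 0.071 from limma). The count of 4 became 2 without Bmi1 replicate 1 or 3 or without empty vector replicate 2 or 3.

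Genes of dual-specificity phosphatases and of Sprouty and other feedback proteins came next, of which some but not all act on ERK signalling. Of these 20 genes, 6 fell, none rose and 14 did not pass, with a median difference of -0.15. Over all genes, 4.37% were called lower and 2.98% higher. Dusp7, whose product dephosphorylates ERK, read 8.02, 8.19 and 7.73 on the Bmi1 arrays, against 9.58, 9.41 and 9.46 on the empty vector arrays. It fell by 1.51 (standard error 0.13, adjusted p = 0.0023 from limma). Dusp4, a nuclear phosphatase gene of the same family, fell by 1.03 (adjusted p = 0.0019 from limma) and Dusp1 by 0.65 (adjusted p = 0.0053 from limma). Spry4, an inhibitor of receptor tyrosine kinase signalling, read 8.57, 8.69 and 8.47 on the Bmi1 arrays, against 9.42, 9.39 and 9.60 on the empty vector arrays, and fell by 0.89 (adjusted p = 0.0047 from limma). Dusp6 and Spry1, named after their values were seen, fell by 0.84 and 0.73 (adjusted p = 0.0082 and 0.015 from limma). The groups did not overlap for 11 of the 20 genes with the Bmi1 arrays lower, these 6 among them, and for 4 with the Bmi1 arrays higher. Over all probe sets the shares were 12.9% and 13.8%, and 15.9% of genes with 1 probe set each had the Bmi1 arrays lower without overlap. Members that did not pass included Spry2 (-0.17) and Dusp5 (-0.19), and Dusp9 had a difference of 0.50 (adjusted p = 0.12 from limma). The count was 5 or 6 with any array left out, whereas among probe sets with a mean of at least 5 it was 10, of which 7 were lower and 3 higher.

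**Figure D4:**
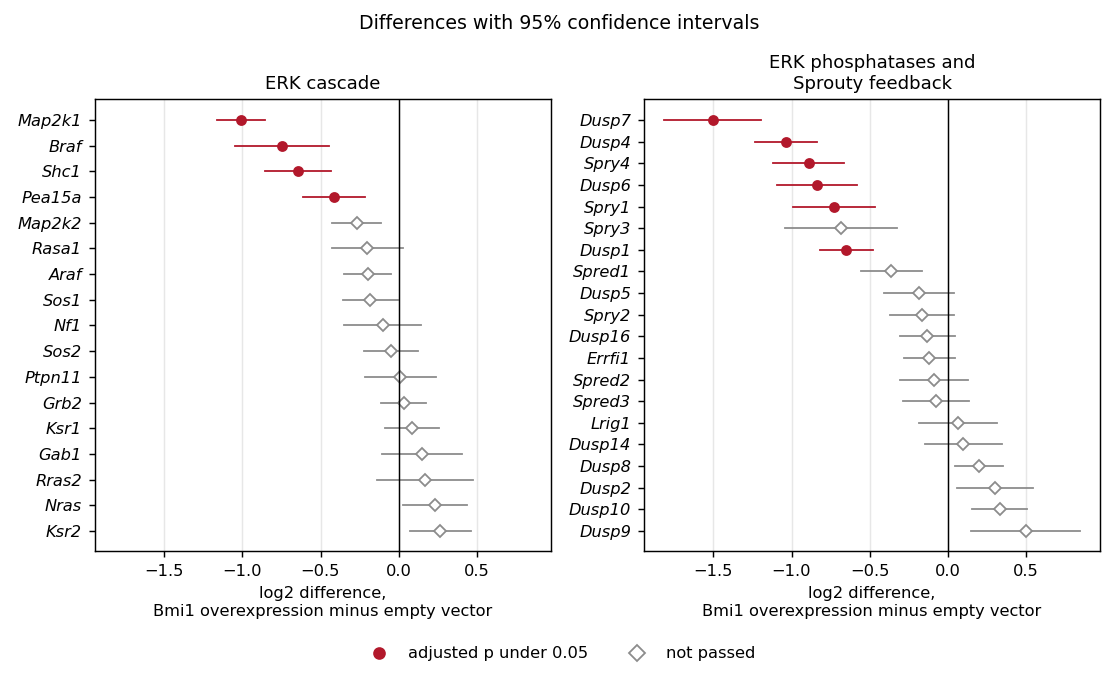
Log2 difference, Bmi1 overexpression minus empty vector (x axis), with 95% confidence interval, filled where the adjusted p from limma was under 0.05. Shown are the 17 measured genes of the ERK cascade and the 20 genes listed as ERK phosphatases and Sprouty feedback (y axis). Map2k1 at -1.01 and Dusp7 at -1.51 have the most negative differences of their lists, and no gene to the right of 0 passed the test.

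Genes of the p38 cascade, the other input of MSK, moved in both directions. Of 14 measured genes 3 rose, 1 fell and 10 did not pass, with a median difference of -0.13. The shares over all genes were 2.98% called higher and 4.37% lower. Map3k5, which encodes the stress kinase ASK1, read 5.80, 6.02 and 5.75 on the Bmi1 arrays, against 4.83, 4.71 and 4.67 on the empty vector arrays, and rose by 1.12 (standard error 0.10, adjusted p = 0.0023 from limma). Mapk12 and Mapk11, which encode the gamma and beta forms of p38, rose by 0.91 and 0.48 (adjusted p = 0.0039 and 0.045 from limma). Mapkapk2, a kinase gene acting behind p38, fell by 0.44 (adjusted p = 0.024 from limma). Mapk14, which encodes the alpha form of p38, did not pass. The count of 4 became 2 without any 1 of the arrays other than Bmi1 replicate 3.

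Upstream of S6K, 34 of 36 listed genes of PI3K, PDK1 and mTORC1 were measured. Of these 4 fell, 2 rose and 28 did not pass, with a median difference of -0.07. The shares over all genes were 4.37% called lower and 2.98% higher. Rictor, 1 of the 4 that fell, encodes a subunit of mTORC2 rather than of mTORC1 (difference of -0.33, adjusted p = 0.047 from limma). Rptor encodes Raptor, the subunit of mTORC1 that presents S6K to the kinase. It read 6.71, 6.74 and 6.88 on the Bmi1 arrays, against 7.57, 7.70 and 7.52 on the empty vector arrays, and fell by 0.82 (standard error 0.08, adjusted p = 0.0042 from limma). Sesn2, which encodes a leucine sensor that restrains mTORC1, fell by 0.72 (adjusted p = 0.0031 from limma). Rragd and Rragb, whose products are Rag GTPases that bring mTORC1 to the lysosome, rose by 0.57 and 0.38 (adjusted p = 0.018 and 0.032 from limma). Mtor itself had a difference of -0.23 and Pdpk1, the gene of PDK1, of -0.06, and neither passed. With any array left out the count of 6 became 2 or 3.

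Downstream, none of 24 genes of known substrates of the family passed limma, with a median difference of 0.03. Over all genes, 4.37% were called lower and 2.98% higher. At an unadjusted p under 0.05 from limma there were 6, a share not counted over all genes. With the methods' t-test after Benjamini-Hochberg adjustment 1 was called. The absence of limma calls among 24 genes is therefore not read as a trait of the substrates. Among them, Rps6, the gene of the ribosomal protein that names the family, had a difference of 0.04 and Creb1 of -0.06. Of 26 immediate early genes that CREB and the serum response factor drive, 1 rose, none fell and 25 did not pass. Their median difference was -0.05, and over all genes 2.98% were called higher and 4.37% lower. The gene that rose was Ier3, which read 5.85, 6.01 and 6.61 on the Bmi1 arrays, against 4.24, 4.64 and 4.13 on the empty vector arrays. It rose by 1.82 (standard error 0.23, adjusted p = 0.0086 from limma). Fos had a difference of -0.13 and Egr1 of -0.04. Transcript levels were measured here, and neither the amount nor the phosphorylation of any of these proteins.

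Among 37 measured genes of other AGC kinases, the group to which the family belongs, 5 fell, 2 rose and 30 did not pass. Their median difference was -0.11, and over all genes 4.37% were called lower and 2.98% higher. Prkcq, which encodes protein kinase C theta, read 7.66, 7.92 and 8.04 on the Bmi1 arrays, against 6.40, 6.48 and 6.48 on the empty vector arrays, and rose by 1.42 (standard error 0.11, adjusted p = 0.0016 from limma). Prkg2, a cGMP-dependent kinase gene, rose by 0.79 (adjusted p = 0.0072 from limma). Prkcb and Prkch, genes of the protein kinase C family, fell by 0.76 and 0.74 (adjusted p = 0.0088 and 0.0039 from limma). The differences of these 37 genes lay between -0.76 and 1.42. Rps6ka6 was not ranked among them, since it was picked on these arrays. The count of 7 became 4 without Bmi1 replicate 1 or without any 1 of the empty vector arrays.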

How the data were processed

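The deposited values are log2 expression per probe set, which the authors made by RMA in Affymetrix Expression Console per the labels (background correction, quantile normalization and summary of probes). Software versions were not given in the sources used here. The table holds 35557 probe sets, of which 21789 name 1 gene in the platform annotation, 1621 several and 12147 none, and no filter was applied. Groups follow the sample titles. Moderated two-sided tests used lmFit and eBayes of limma 3.58.1 under R 4.3.3, checked on simulated data. Precision is limited by there being 3 arrays per group. List genes were matched by symbol or synonym, and gene order and promoters come from RefSeq tables of GRCm38.p6. Members and lists were chosen with earlier results of these data known. Named genes are the members, up to 4 called genes of each pathway list with the smallest adjusted p, the 2 nearest measured genes on each side of Rps6ka6, the 5 most like it, and Bmi1. Others were named after their values were seen.

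Alternatives were the t-test of the study's methods, another variance prior, a filter, 1 probe set per gene, other scalings, leaving out each array and a replicate block.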

Additional observations from a re-analysis of the deposited data

How the results depend on the processing

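The difference of Rps6ka6 stayed between -3.61 and -3.40 under all alternatives run. That of Rps6ka5 stayed between -0.73 and -0.57 and lost its call in 6 of 15, those 4 without an array and both forms of the methods' t-test. Rps6ka3 passed in 4 of 15, and the difference of Rps6kb2 lay between -0.080 and 0.010 with any array left out, changing sign to 0.010 without Bmi1 replicate 2. Counting Rps6ka6, the members called lower numbered 2, 1 with the methods' t-test and with it after Benjamini-Hochberg adjustment, and 1 to 2 with any array left out. Rps6ka6 was picked on these arrays, so that its part in these counts is not read as a test. In place of 2025 probe sets (1231 lower and 794 higher), the methods' t-test called 300, the mean-dependent prior 3190, the filter at a mean of 5 3424, the replicate block 850 and the fits without an array 974 to 1275. After median centring 1467 were lower and 593 higher. The fit run on 1 probe set per gene alone called 2539 of 19938, with 1400 lower and 1139 higher. With the methods' t-test, lists had 1 call (ERK cascade), 1 (p38), 0 (mTORC1), 2 (feedback), 0 (immediate early) and 1 (AGC), and after adjustment 1 (substrates), 0 (immediate early) and 4 (AGC). The mean-dependent prior gave 10 (mTORC1) and 1 (substrates), the filter 12 (mTORC1), 3 (substrates), 10 (feedback), 3 (immediate early) and 11 (AGC), and 1 probe set per gene 1 (substrates), 10 (feedback) and 2 (immediate early). Without an array the ranges were 2 to 4 (ERK cascade), 2 to 4 (p38), 2 to 3 (mTORC1) and 4 to 6 (AGC). Of 6 fits without an array, Braf and Spry1 lost their calls in 4, Pea15a, Mapk11, Mapkapk2 and Rragd in 5 and Rragb in 6. The causes were not tested. With the replicate number as a block, 2 genes of the ERK cascade, 2 of p38, 2 of mTORC1 and 4 of AGC were called, and the calls of the members did not change. Same-numbered arrays deviated from their group means with correlations of 0.00, -0.03 and -0.02 and no array correlated best with its own number, so the numbers were not taken to pair arrays.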
